A study of Mus musculus with 18 samples.

Results

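The libraries described here come from mouse embryonic stem cells of the line E14Tg2a that lack Daxx and from wild-type E14Tg2a cells, both grown in 2i with vitamin C. There were 3 Daxx-null and 3 wild-type libraries, which is 6 of the 18 in the series, and they were chosen by their labels for genotype and culture. The 2i medium was a serum-free mixture of Neurobasal and DMEM/F-12 with N2 and B-27 supplements, inhibitors of the kinases GSK3 and MEK, and LIF, and vitamin C was added at 100 µg/mL. Both genotypes therefore had the same inhibitors, LIF and vitamin C, and differed by label in Daxx alone. The other 12 libraries hold the same 2 genotypes in serum with LIF and after retinoic acid. The sources used here give neither the number of knockout clones nor the deleted region, and they do not say whether replicates were separate cultures. The p-values below therefore reflect only how these libraries vary, which may be technical.

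Daxx is a histone chaperone that, with the chromatin remodeller Atrx, deposits the histone variant H3.3 at heterochromatin, telomeres and retroelements, and it is a component of PML nuclear bodies. In embryonic stem cells the Daxx pathway is known for its part in silencing endogenous retroviruses together with H3K9 methylation. In 2i the MEK inhibitor blocks signalling from FGF to ERK, the GSK3 inhibitor raises Wnt target expression, and DNA methylation is low. Vitamin C is a cofactor of the Tet enzymes and of JmjC histone demethylases and lowers DNA methylation further.

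The values are FPKM, reads in a gene's exons per length and per depth, on a scale about 10 times that of a conventional FPKM. Depth in the 2i libraries, read back from the steps of low values, was 91.8 to 113.5 M units, and 59.7 to 60.6% of them lay in exons. Daxx itself had 54.4, 56.0 and 57.6 FPKM in Daxx-null libraries, against 434, 423 and 402 FPKM in wild-type libraries (log2 difference -2.89, SE 0.10, limma adjusted p = 0.000138). Pou5f1, the defining pluripotency factor, was abundant in every library, with 5198, 1918 and 4249.9 FPKM in Daxx-null libraries, against 7000.3, 7296 and 8347 FPKM in wild-type libraries.

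A pair of libraries stood apart from the rest of their groups. Daxx-null replicate 2 correlated with the other Daxx-null libraries at r = 0.928 and 0.938 across genes, while those correlated with each other at 0.983. Wild-type replicate 3 correlated with the other wild-type libraries at 0.973 and 0.971, against 0.992 between those. Daxx-null replicate 2 also carried neural RNA: the summed level of 32 markers of neural progenitors and neurons was 1057, 4447 and 936 FPKM in Daxx-null libraries, against 1776, 1822 and 1384 FPKM in wild-type libraries. In bulk RNA, fewer cells of a type and less RNA per cell cannot be told apart. Counts of the gene lists in 2i are therefore given for all 6 libraries and, as "the 4-library fit", without both of these libraries. Values per library are given in the order of replicates 1, 2 and 3.

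Among 16731 genes tested, 2956 (17.7%) rose in Daxx-null cells and 1299 (7.76%) fell, at an adjusted p under 0.05 in limma. In the 4-library fit 3966 (23.7%) rose and 2017 (12.1%) fell. Of the calls made on 6 libraries, 2813 that rose and 1191 that fell were called in both fits, and 0 genes were called in opposite directions. At least 2-fold changes were called for 1984 genes that rose and 508 that fell, and at least 4-fold changes for 733 and 99. The excess of rises over falls moved with the scaling. On FPKM 69.5% of calls were rises, against 50.4% after quantile normalisation, where 1904 (11.4%) rose and 1872 (11.2%) fell. The median log2 difference over all genes was 0.17 on FPKM and -0.04 after quantile normalisation, so small rises of lists below stand against that shift. Directions named below held under every scaling tried except for 5 genes on chromosomes 1 and 14, which are Klf5, Nr5a2, Supt16, H3f3a and Mphosph8.

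Counts were also made with each library left out in turn. Rises numbered 818 without Daxx-null replicate 3, 1669 and 1814 without wild-type replicates 1 and 2, and 1934 without Daxx-null replicate 1. Falls numbered 524 without Daxx-null replicate 3 and 593 and 607 without wild-type replicates 1 and 2. In 37 of the 39 gene lists examined, leaving out Daxx-null replicate 3 gave the fewest calls or tied for them. Ranges of counts given below as "with 1 library left out" cover all 6 such fits.

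**Figure D1:**
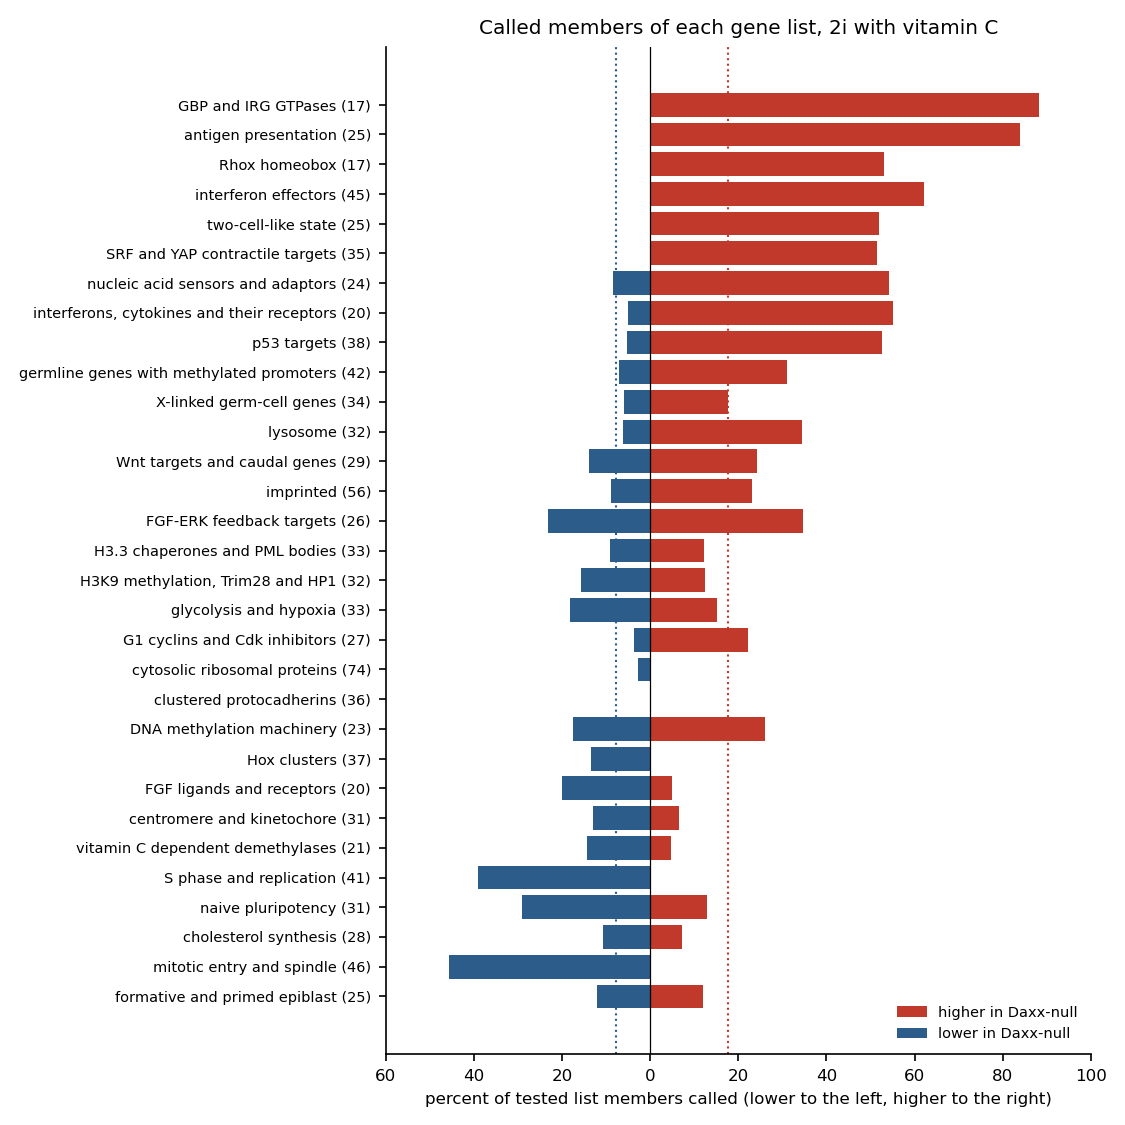
Shares of the tested members of each gene list that rose (right) or fell (left) in Daxx-null relative to wild-type 2i libraries, in percent, from the fit of all 6 libraries, with the number tested in brackets and dotted lines at the shares over all tested genes. The lists of GBP and IRG GTPases and of antigen presentation had 15 of 17 and 21 of 25 members rise, and the mitotic list had 21 of 46 members fall.

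Of the 12 genes with the largest called rises, several encode parts of the interferon response, and others belong to unrelated families. Lnp1, the mouse gene of a fusion partner of NUP98 in human leukaemia, at chr16:56914213-56928052 (mm9), had 123, 45.2 and 82.8 FPKM in Daxx-null libraries, against 3.87, 3.04 and 0.387 FPKM in wild-type libraries (log2 difference 5.02, SE 0.65, limma adjusted p = 0.00542). Slc40a1, which encodes the iron exporter ferroportin, had 329, 207 and 265 FPKM in Daxx-null libraries, against 15.8, 19.5 and 1.72 FPKM in wild-type libraries, a log2 difference of 4.87 and 4.03 in the 4-library fit. Cck, the gene of the peptide hormone cholecystokinin, had 60.9, 58.4 and 55.9 FPKM in Daxx-null libraries, against 3.05, 3.02 and 0.593 FPKM in wild-type libraries. In each of these genes the groups did not overlap, and wild-type replicate 3 was the lowest library.

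Rassf4, a member of the Ras association domain family, had 89.6, 70.4 and 97.1 FPKM in Daxx-null libraries, against 7.68, 5.97 and 1.12 FPKM in wild-type libraries. Slc6a14, an amino acid transporter gene on the X chromosome, had 17.7, 16.7 and 17.9 FPKM in Daxx-null libraries, against 0.641, 0.956 and 0.149 FPKM in wild-type libraries, and its log2 difference was 4.13 and 3.83 in the 4-library fit. It passed the filter on low values through the Daxx-null libraries alone, which is true of 339 genes in all, while 34 genes passed through the wild-type libraries alone. Fthl17a, a ferritin heavy chain-like gene on the X chromosome, had 28.2, 14.1 and 20.3 FPKM in Daxx-null libraries, against 1.14, 0.782 and 0.365 FPKM in wild-type libraries. Naip6, a receptor gene of the inflammasome with close paralogs beside it, had 47.3, 40.6 and 49.8 FPKM in Daxx-null libraries, against 3.15, 2.62 and 0.669 FPKM in wild-type libraries, and reads may be shared with those paralogs. The remaining genes of the 12, Cxcl10, Gbp2b, Gbp2, Psmb8 and Rhox9, are described with their families.

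The largest falls were of another kind. Etv4, an ETS transcription factor induced by FGF and ERK signalling, had 50.8, 19.7 and 32.9 FPKM in Daxx-null libraries, against 434, 472 and 461 FPKM in wild-type libraries (log2 difference -3.81, SE 0.30, limma adjusted p = 0.00374). Nkx1-2, a homeobox gene of the caudal epiblast, had 0.51, 1.42 and 1.65 FPKM in Daxx-null libraries, against 24.4, 21.5 and 23.9 FPKM in wild-type libraries, a log2 difference of -3.88. Cd37, a tetraspanin gene, had 33.4, 15.6 and 28.6 FPKM in Daxx-null libraries, against 283, 336 and 329 FPKM in wild-type libraries, a log2 difference of -3.65. The Daxx-null libraries were all below the wild-type libraries in these 3 genes, and the log2 differences in the 4-library fit were -3.45, -3.99 and -3.30.

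Neighbouring genes fell together at one place on chromosome 7 (mm9). Nphs1, the gene of the slit diaphragm protein nephrin at chr7:31245077-31273628, had 6.37, 4.74 and 7.38 FPKM in Daxx-null libraries, against 74.1, 76.8 and 95.7 FPKM in wild-type libraries. Its antisense transcript Nphs1os at chr7:31247183-31250610 had 6.40, 5.13 and 11.1 FPKM in Daxx-null libraries, against 79.1, 86.3 and 77.0 FPKM in wild-type libraries, and since strand is not stated for these libraries, reads of the overlapping pair cannot be told apart. Kirrel2, which encodes a nephrin-related adhesion protein and lies next to Nphs1 at chr7:31232785-31242534, had 6.27, 3.58 and 6.54 FPKM in Daxx-null libraries, against 41.2, 46.9 and 47.0 FPKM in wild-type libraries. The log2 differences were -3.64, -3.41 and -2.97, with a limma adjusted p of 0.00374 for each.

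Apol6, an apolipoprotein L gene, had 1.75, 2.47 and 1.99 FPKM in Daxx-null libraries, against 42.6, 47.4 and 23.7 FPKM in wild-type libraries. Rln3, a relaxin-family peptide gene, had 2.62, 2.46 and 7.74 FPKM in Daxx-null libraries, against 48.9, 43.0 and 88.5 FPKM in wild-type libraries. Hoxa11 had 0, 0.338 and 0 FPKM in Daxx-null libraries, against 6.63, 7.58 and 12.3 FPKM in wild-type libraries, and was listed at 0 in 2 of the Daxx-null libraries. Among the largest falls were also Olfr985 and Gjb1, which encode an olfactory receptor and a connexin, with log2 differences of -3.05 and -3.00.

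**Figure D2:**
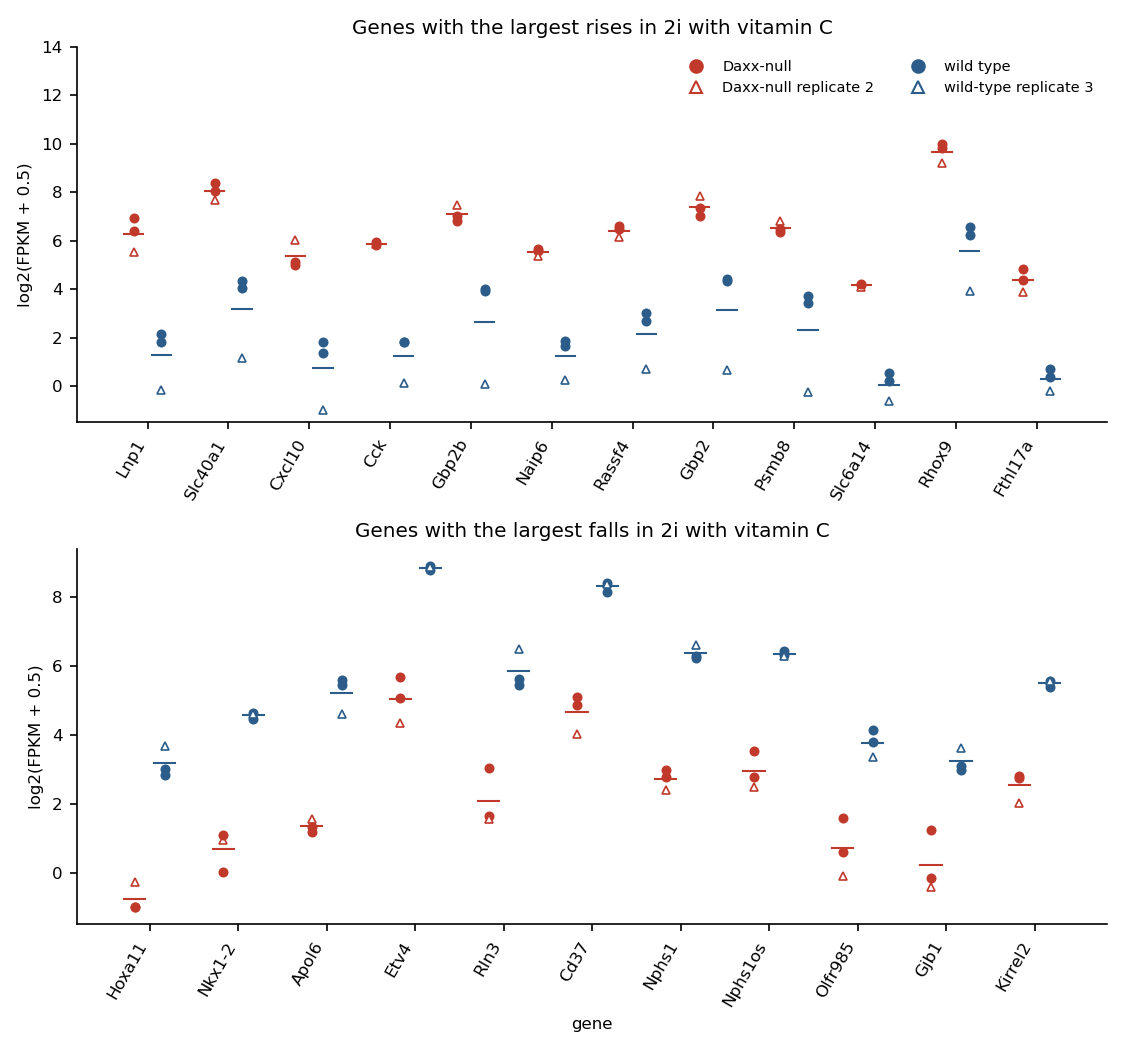
Level per library, as log2 of FPKM plus 0.5, for genes with the largest rises (top) and the largest falls (bottom), Daxx-null libraries left of wild-type libraries, with bars at group means and triangles for Daxx-null replicate 2 and wild-type replicate 3. Groups do not overlap in any of these genes, and wild-type replicate 3 is the lowest library for Cxcl10, Gbp2b and Psmb8.

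Genes of the interferon system rose in each of its parts: inducible GTPases, antiviral effectors, the MHC class I pathway and chemokines. In this system, interferon receptors act through transcription factors that bind a promoter element with the core GAAA, any 2 bases, GAAA, and induced proteins restrict viruses, destroy pathogen vacuoles or present peptides. Guanylate-binding proteins (GBPs) and immunity-related GTPases (IRGs) act on the membranes of intracellular pathogens. Of the GBP and IRG genes, 17 of 19 were tested, 1 of them passing through the Daxx-null libraries alone. Of these 17, 15 rose (88.2%) and 0 fell, against 17.7% and 7.76% of all genes (16 and 0 at an unadjusted p under 0.05 in limma). In the 4-library fit 16 rose. Their median log2 difference was 3.13, and 1.88 in the 4-library fit, against 0.17 and 0.12 over all genes. Leaving out single libraries gave 2 to 16 rises, with 2 when Daxx-null replicate 3 was absent, 8 without Daxx-null replicate 1 and 9 without Daxx-null replicate 2. With no filter on low values 2 rose.

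Gbp2, at chr3:142283627-142300972 (mm9), had 128, 229 and 163 FPKM in Daxx-null libraries, against 20.7, 19.9 and 1.08 FPKM in wild-type libraries (log2 difference 4.26, SE 0.94, limma adjusted p = 0.0192). Gbp2b, its near neighbour at chr3:142257811-142282140, had 111, 177 and 128 FPKM in Daxx-null libraries, against 15.3, 14.8 and 0.543 FPKM in wild-type libraries, a log2 difference of 4.43, and reads may be shared between these similar genes. In both, the 3 Daxx-null libraries were above the wild-type libraries, and wild-type replicate 3 was far below the other wild-type libraries. In the 4-library fit the log2 differences were 2.81 and 2.94. Gbp7 had 40.2, 89.6 and 70.9 FPKM in Daxx-null libraries, against 16.6, 16.8 and 5.91 FPKM in wild-type libraries, Gbp4 had 12.8, 25.7 and 17.1 FPKM in Daxx-null libraries, against 2.94, 2.34 and 0.182 FPKM in wild-type libraries, and Gbp5, the member that passed the filter through the Daxx-null libraries alone, had 6.18, 20.9 and 6.44 FPKM in Daxx-null libraries, against 0.57, 0.615 and 0 FPKM in wild-type libraries. Gbp10 had 5.57, 13.4 and 11.3 FPKM in Daxx-null libraries, against 1.002, 1.02 and 0.116 FPKM in wild-type libraries.

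Promoter sequences are shown only for named genes that rose and held a match to this element, with the match in capitals on either strand. They come from RefSeq on GRCm38.p6, a later build than the mm9 of the values. Each is printed 5′ to 3′ on the strand of the gene and ends before the transcript start. The motif was searched on both strands in the 250 bases before and 50 after each start. It was found in 1079 of 27025 genes of the promoter table (3.99%), and in 10 of the 11 tested GBP and IRG genes that had a promoter there. Among antiviral effectors it was found in 7 of 19 that rose and in 9 of 14 without a call. Antigen presentation genes held it in 5 of 16 that rose and in 0 of 3 without a call. Promoters were at hand for 64.7%, 73.3% and 76% of the tested members of these lists, too few for the shares to be read.
Gbp2, chr3:142620564-142620653 (plus strand): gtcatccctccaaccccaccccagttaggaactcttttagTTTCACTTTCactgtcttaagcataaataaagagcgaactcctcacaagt
Gbp2b, chr3:142594670-142594759 (plus strand): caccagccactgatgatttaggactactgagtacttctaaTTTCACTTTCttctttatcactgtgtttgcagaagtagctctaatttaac
Gbp5, chr3:142496729-142496818 (plus strand): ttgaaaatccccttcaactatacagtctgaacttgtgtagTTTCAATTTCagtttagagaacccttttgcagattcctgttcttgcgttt
Gbp7, chr3:142530243-142530332 (plus strand): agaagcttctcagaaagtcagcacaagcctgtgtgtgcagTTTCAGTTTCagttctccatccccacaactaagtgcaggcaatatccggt
Cxcl10, chr5:92349053-92349139 (minus strand): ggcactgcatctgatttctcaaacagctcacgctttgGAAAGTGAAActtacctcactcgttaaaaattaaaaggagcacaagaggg
Bst2, chr8:71537553-71537642 (minus strand): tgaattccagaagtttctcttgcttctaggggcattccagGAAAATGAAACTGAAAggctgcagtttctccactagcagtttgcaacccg
The Bst2 window holds 2 overlapping matches. Promoters of Irf1, Ifi35, H2-D1, H2-K1 and Psmb8 in the table held no match within the window. A match is a description of the letters and not evidence of binding.

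Antiviral effectors moved the same way. All 45 members were tested, and 28 rose (62.2%) and 0 fell, against 17.7% and 7.76% of all genes (40 and 0 at an unadjusted p under 0.05 in limma). In the 4-library fit 38 rose. The median log2 difference was 1.73 with 6 libraries and 1.19 in the 4-library fit. Bst2, which encodes tetherin, a membrane protein that retains budding virions, had 755, 871 and 709.9 FPKM in Daxx-null libraries, against 284, 294 and 128 FPKM in wild-type libraries (log2 difference 1.81, SE 0.31, limma adjusted p = 0.00978). Irf1, a transcription factor of the interferon response, had 233, 232 and 249 FPKM in Daxx-null libraries, against 103, 107 and 85.4 FPKM in wild-type libraries, and here wild-type replicate 3 was close to the other wild-type libraries. Ifi35 had 106, 95.9 and 95.4 FPKM in Daxx-null libraries, against 35.9, 38.0 and 23.3 FPKM in wild-type libraries, and Parp9, an ADP-ribosyltransferase family gene, had 142, 190.4 and 171 FPKM in Daxx-null libraries, against 77.1, 78.2 and 57.0 FPKM in wild-type libraries.

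Groups did not overlap for 40 of the 45, against 33.3% of all tested genes, and some of these 40 were not called with 6 libraries. Isg15, a ubiquitin-like modifier chosen here after its values were seen, had 255, 241 and 222 FPKM in Daxx-null libraries, against 71.5, 81.0 and 1.76 FPKM in wild-type libraries (limma adjusted p = 0.0863), and its log2 difference was 1.64 in the 4-library fit, limma adjusted p = 0.00109. Left out one library at a time, the list had 5 to 32 members rise, with 5 when Daxx-null replicate 3 was absent, 12 without Daxx-null replicate 2 and 14 without Daxx-null replicate 1. With no filter on low values 5 rose.

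The MHC class I pathway, which loads proteasome-cut peptides onto surface molecules, had the highest share of rises after the GTPases. All 25 members were tested, 1 of them through the Daxx-null libraries alone. Of these, 21 rose (84%) and 0 fell, against 17.7% and 7.76% of all genes (22 and 0 at an unadjusted p under 0.05 in limma). The 4-library fit also gave 21 and 0. H2-K1, a class I heavy chain, had 577, 1049 and 652 FPKM in Daxx-null libraries, against 114, 129.5 and 58.9 FPKM in wild-type libraries (log2 difference 2.94, SE 0.33, limma adjusted p = 0.00451). H2-D1 had 633, 989 and 656 FPKM in Daxx-null libraries, against 139.9, 161 and 84.8 FPKM in wild-type libraries and H2-L had 692, 1051 and 761 FPKM in Daxx-null libraries, against 169, 193 and 104 FPKM in wild-type libraries, and reads may be shared between this pair of near-identical genes. Psme1, a subunit of the proteasome activator, had 145, 140.0 and 109 FPKM in Daxx-null libraries, against 29.4, 31.1 and 17.8 FPKM in wild-type libraries. Psmb8, a catalytic subunit of the immunoproteasome, had 80.8, 111 and 88.1 FPKM in Daxx-null libraries, against 10.3, 12.7 and 0.335 FPKM in wild-type libraries (log2 difference 4.24, SE 0.97, limma adjusted p = 0.021), and its log2 difference was 2.83 in the 4-library fit. The members without a call were the endoplasmic reticulum chaperones Calr, Pdia3 and Canx and the class II regulator Ciita.

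Of cytokines, chemokines and their receptors 20 of 34 were tested, 3 of them through the Daxx-null libraries alone. In this list 11 rose (55%) and 1 fell (5%), against 17.7% and 7.76% of all genes. There were 10 and 1 in the 4-library fit (4 to 10 and 0 to 1 with 1 library left out), while 6 members were at 0 in all 6 libraries. Cxcl10, a chemokine that attracts T cells, had 31.1, 65.5 and 33.8 FPKM in Daxx-null libraries, against 2.09, 2.99 and 0 FPKM in wild-type libraries (log2 difference 4.65, SE 0.73, limma adjusted p = 0.00816), and its log2 difference was 3.45 in the 4-library fit. Ccl2, a chemokine that attracts monocytes, had 21.4, 31.2 and 22.8 FPKM in Daxx-null libraries, against 2.97, 2.04 and 0 FPKM in wild-type libraries. Both were listed at 0 in wild-type replicate 3. Among receptors, Ifnar2, a chain of the type I interferon receptor, had 79.3, 87.2 and 64.1 FPKM in Daxx-null libraries, against 39.8, 43.7 and 40.8 FPKM in wild-type libraries, and Il10rb, a chain of the type III interferon and interleukin 10 receptors, had 55.4, 55.2 and 44.1 FPKM in Daxx-null libraries, against 14.6, 18.99 and 23.8 FPKM in wild-type libraries. Lifr, the receptor of the LIF in the medium, fell, with 24.2, 29.7 and 26.5 FPKM in Daxx-null libraries, against 45.7, 47.7 and 49.1 FPKM in wild-type libraries.

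Sensors of foreign or misplaced nucleic acid changed in both directions. Of 24 tested members of 27, 13 rose and 2 fell, and 14 and 2 in the 4-library fit (3 to 11 and 0 to 3 with 1 library left out). With 6 libraries that is 54.2% and 8.33%, against 17.7% and 7.76% of all genes. Levels of whole chromosomes differed, as described below: 4 of the 13 rises lay on chromosome 1 or 14, and 1 of the 2 falls on 6, 8 or 19. With the median of each chromosome subtracted, 8 members rose and 1 fell, against 10 and 3 after quantile normalisation alone. Tmem173, the adaptor STING of cytosolic DNA sensing, had 46.2, 43.4 and 42.4 FPKM in Daxx-null libraries, against 20.3, 22.6 and 14.03 FPKM in wild-type libraries, while Mb21d1, the sensor cGAS upstream of it, fell, with 11.7, 10.4 and 14.8 FPKM in Daxx-null libraries, against 29.2, 26.5 and 29.3 FPKM in wild-type libraries. Ifi204, a DNA sensor of the HIN-200 family, had 7.60, 7.40 and 4.38 FPKM in Daxx-null libraries, against 0.667, 1.05 and 0 FPKM in wild-type libraries, and Ticam1, the adaptor of Toll-like receptor 3, had 47.1, 59.0 and 50.1 FPKM in Daxx-null libraries, against 28.6, 25.9 and 23.7 FPKM in wild-type libraries. Subunits of RNase H2, which removes RNA from RNA-DNA hybrids, went opposite ways, and the part of chromosome levels in that was not tested. Rnaseh2b had 223, 169.5 and 185 FPKM in Daxx-null libraries, against 96.5, 100.2 and 83.2 FPKM in wild-type libraries, and Rnaseh2c had 255, 149.8 and 199.9 FPKM in Daxx-null libraries, against 315, 318 and 539 FPKM in wild-type libraries.

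Many genes of cell division fell in Daxx-null cells. Of 46 genes of mitotic entry and the spindle, all tested, 0 rose and 21 fell (45.7%), against 17.7% and 7.76% of all genes (0 and 30 at an unadjusted p under 0.05 in limma). The 4-library fit gave 0 and 27. The median log2 difference was -0.44 with 6 libraries and -0.41 in the 4-library fit. Kif11, the kinesin that separates spindle poles, had 149, 136 and 168 FPKM in Daxx-null libraries, against 294, 288 and 332 FPKM in wild-type libraries (log2 difference -1.01, SE 0.12, limma adjusted p = 0.00496). Foxm1, a transcription factor of mitotic genes, had 137, 156 and 155 FPKM in Daxx-null libraries, against 273, 264 and 303 FPKM in wild-type libraries, and Cdc25b, a phosphatase that activates Cdk1, had 37.5, 61.1 and 40.1 FPKM in Daxx-null libraries, against 118, 125 and 169 FPKM in wild-type libraries. Cep55, which acts in abscission, had 304, 231 and 289 FPKM in Daxx-null libraries, against 519, 578 and 550.3 FPKM in wild-type libraries. Groups did not overlap in these 4 genes, nor in 30 of the 46, all lower in Daxx-null cells, against 16.5% of all tested genes. Leaving out single libraries gave 11 to 21 falls, with 12 without Daxx-null replicate 3, and 11 without either wild-type replicate 1 or wild-type replicate 2.

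Replication genes showed the same direction. Of 41 tested members, 0 rose and 16 fell (39.0%), against 17.7% and 7.76% of all genes (2 and 21 at an unadjusted p under 0.05 in limma). The 4-library fit gave 1 and 18. Mcm2, a subunit of the replicative helicase, had 866, 781 and 929 FPKM in Daxx-null libraries, against 1685, 1690.4 and 1957 FPKM in wild-type libraries (log2 difference -1.05, SE 0.14, limma adjusted p = 0.00542). Rfc5, a subunit of the clamp loader, had 269.9, 147 and 212 FPKM in Daxx-null libraries, against 482, 514 and 583 FPKM in wild-type libraries, and Lig1, the ligase that joins Okazaki fragments, had 335, 293 and 353 FPKM in Daxx-null libraries, against 530.4, 527 and 644 FPKM in wild-type libraries. Chek1, the kinase of the replication checkpoint, had 107, 97.7 and 102 FPKM in Daxx-null libraries, against 167, 171 and 179.8 FPKM in wild-type libraries. Single left-out libraries gave 7 to 15 falls, with 7 without Daxx-null replicate 3 and 9 without either wild-type replicate 1 or wild-type replicate 2.

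Mitotic genes are known for the CHR element (TTTGAA) and CCAAT boxes near their start sites. Of the 37 mitotic list genes in the promoter table, 27 (73.0%) held TTTGAA and 28 (75.7%) held CCAAT on either strand, against 20.2% and 41.1% of all promoters there. TTTGAA was present in 12 of the 17 that fell and in 15 of the 20 without a call. Of 33 replication genes, 5 (15.2%) held TTTGAA and 20 (60.6%) held CCAAT. Kif11 and Mcm2 are shown as the members with the smallest adjusted p in each list, with TTTGAA and CCAAT in capitals on either strand.
Kif11, chr19:37376323-37376381 (plus strand): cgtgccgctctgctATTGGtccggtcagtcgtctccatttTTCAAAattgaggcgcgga
Mcm2, chr6:88898911-88898995 (minus strand): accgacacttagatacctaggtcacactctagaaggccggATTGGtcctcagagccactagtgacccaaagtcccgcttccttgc

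Of 27 tested G1 cyclins and Cdk inhibitors 6 rose and 1 fell, and 9 and 6 in the 4-library fit (2 to 8 and 0 to 3 with 1 library left out). With 6 libraries that is 22.2% and 3.70%, near the 17.7% and 7.76% of all genes. Cdkn2a, the locus of the Cdk inhibitor p16 and of Arf, had 435, 413 and 374 FPKM in Daxx-null libraries, against 163, 178 and 169 FPKM in wild-type libraries (log2 difference 1.25, SE 0.11, limma adjusted p = 0.00374), and its neighbour Cdkn2b, the inhibitor p15, had 71.0, 87.0 and 60.7 FPKM in Daxx-null libraries, against 31.5, 26.3 and 12.5 FPKM in wild-type libraries. Rb1, the retinoblastoma protein gene, had 93.1, 88.0 and 83.4 FPKM in Daxx-null libraries, against 31.4, 29.1 and 10.7 FPKM in wild-type libraries. Btg2, an antiproliferative p53 target, had 507, 351 and 467 FPKM in Daxx-null libraries, against 163, 169.7 and 58.2 FPKM in wild-type libraries. The member that fell was E2f4, with 495, 448 and 432 FPKM in Daxx-null libraries, against 662, 701 and 652 FPKM in wild-type libraries.

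Of 38 tested p53 targets, 20 rose (52.6%) and 2 fell (5.26%), against 17.7% and 7.76% of all genes. There were 24 and 3 in the 4-library fit. The median log2 difference was 0.79 with 6 libraries and 0.74 in the 4-library fit. Pmaip1, which encodes the apoptosis inducer Noxa, had 138, 122 and 119.995 FPKM in Daxx-null libraries, against 62.4, 62.5 and 50.3 FPKM in wild-type libraries. Perp, a membrane protein gene of p53-dependent apoptosis, had 385, 236 and 299 FPKM in Daxx-null libraries, against 97.0, 97.6 and 47.3 FPKM in wild-type libraries. Polk, a translesion DNA polymerase, had 108, 89.2 and 99.0 FPKM in Daxx-null libraries, against 47.7, 45.8 and 38.0 FPKM in wild-type libraries, and Ddit4, an inhibitor of mTORC1 signalling, had 1105, 809 and 975 FPKM in Daxx-null libraries, against 449, 411 and 582 FPKM in wild-type libraries. The members that fell were the fructose bisphosphatase Tigar and the DNA damage sensor Xpc. Both lay on chromosome 6, 8 or 19, where medians were lower in Daxx-null libraries, and 3 of the 20 rises lay on 1 or 14. Trp53 itself was not called, with 799, 562 and 564 FPKM in Daxx-null libraries, against 649, 682 and 548 FPKM in wild-type libraries. Without Daxx-null replicate 3 only 5 members rose, and without Daxx-null replicate 1 there were 13.

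Kinetochore genes had 2 rises (6.45%) and 4 falls (12.9%) among 31 tested, against 17.7% and 7.76% of all genes. There were 2 and 6 in the 4-library fit (1 to 2 and 1 to 8 with 1 library left out). Cenpa, the centromeric histone H3 variant, had 439, 285 and 348 FPKM in Daxx-null libraries, against 551, 578 and 633 FPKM in wild-type libraries, and Cenpb, which binds minor satellite DNA, had 282, 341 and 309 FPKM in Daxx-null libraries, against 533, 550.5 and 582 FPKM in wild-type libraries. Zwint and Ndc80, of the outer kinetochore, were the members that rose, with log2 differences of 0.95 and 0.72.

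Targets of FGF and ERK had calls in both directions. Of 26 tested members 9 rose (34.6%) and 6 fell (23.1%), against 17.7% and 7.76% of all genes. The 4-library fit gave 9 and 10 (2 to 7 and 4 to 8 with 1 library left out). Of those that fell, Spry4, a Sprouty inhibitor of receptor signalling, had 12.9, 7.43 and 9.25 FPKM in Daxx-null libraries, against 45.7, 62.2 and 29.1 FPKM in wild-type libraries. Dusp6, a phosphatase of ERK, had 16.9, 38.4 and 14.9 FPKM in Daxx-null libraries, against 80.3, 91.8 and 67.5 FPKM in wild-type libraries, and Spred2, an inhibitor of Raf activation, had 115, 145 and 145 FPKM in Daxx-null libraries, against 259.8, 253 and 236 FPKM in wild-type libraries. Etv4 has been described above. Of those that rose, Fosl2, an AP-1 subunit, had 20.3, 50.4 and 32.5 FPKM in Daxx-null libraries, against 5.35, 5.82 and 2.07 FPKM in wild-type libraries, and Ier3 had 75.5, 89.1 and 72.7 FPKM in Daxx-null libraries, against 32.6, 28.0 and 30.2 FPKM in wild-type libraries. Bcl2l11, which encodes the apoptosis inducer Bim and is destabilised by ERK, had 42.9, 63.7 and 46.3 FPKM in Daxx-null libraries, against 23.9, 25.5 and 19.4 FPKM in wild-type libraries.

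Of 20 tested FGF ligands, receptors and scaffolds 1 rose (5%) and 4 fell (20%), against 17.7% and 7.76% of all genes. Counts in the 4-library fit were 2 and 7 (0 to 2 and 1 to 4 with 1 library left out). Fgf4, the main FGF of embryonic stem cells, had 379, 237 and 348 FPKM in Daxx-null libraries, against 537, 547 and 512 FPKM in wild-type libraries (log2 difference -0.75, SE 0.18, limma adjusted p = 0.0248). Ksr1, a scaffold of the ERK cascade, had 23.3, 33.3 and 40.1 FPKM in Daxx-null libraries, against 86.3, 80.1 and 103 FPKM in wild-type libraries. Fgfr2, the receptor that marks extraembryonic lineages in the blastocyst, was the member that rose, with 16.4, 33.4 and 21.7 FPKM in Daxx-null libraries, against 4.54, 4.85 and 0.379 FPKM in wild-type libraries. Fgf10 and Fgf17, both low, had log2 differences of -1.42 and -1.79.

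The list of Wnt targets and caudal genes also had calls in both directions. Of 29 tested members 7 rose (24.1%) and 4 fell (13.8%), against 17.7% and 7.76% of all genes. There were 8 and 10 in the 4-library fit (2 to 5 and 2 to 5 with 1 library left out). Axin2, the feedback inhibitor that is a direct target of beta-catenin in most tissues, had 181, 264 and 193 FPKM in Daxx-null libraries, against 99.1, 97.1 and 99.4 FPKM in wild-type libraries (log2 difference 1.09, SE 0.16, limma adjusted p = 0.00668). Sp5, another direct target, had 340.0, 262 and 256 FPKM in Daxx-null libraries, against 91.5, 98.9 and 74.8 FPKM in wild-type libraries. Lef1 and Tcf7l2, which encode factors that bind beta-catenin, had log2 differences of 2.10 and 1.03. Cdx1, a caudal homeobox gene, fell, with 185, 86.0 and 155 FPKM in Daxx-null libraries, against 725, 735 and 1509.8 FPKM in wild-type libraries, and Nkx1-2 has been described above. Tcf7l1, the repressor among the Tcf factors, had 438, 323 and 378 FPKM in Daxx-null libraries, against 575, 523 and 539.9 FPKM in wild-type libraries.

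Naive pluripotency genes had more falls than rises. Of 31 tested members 4 rose (12.9%) and 9 fell (29.0%), against 17.7% and 7.76% of all genes. There were 5 and 11 in the 4-library fit (1 to 5 and 6 to 12 with 1 library left out). Gbx2, a target of LIF and Stat3, had 58.7, 69.1 and 46.6 FPKM in Daxx-null libraries, against 183, 223 and 245 FPKM in wild-type libraries (log2 difference -1.90, SE 0.18, limma adjusted p = 0.00374). Gdf3, a TGF-beta family ligand, had 321, 213 and 257 FPKM in Daxx-null libraries, against 728, 834 and 666 FPKM in wild-type libraries, and Tcl1, a cofactor of Akt, had 132, 98.5 and 105 FPKM in Daxx-null libraries, against 351, 329 and 538 FPKM in wild-type libraries. Lin28a, an RNA-binding protein that blocks let-7 maturation, had 55.0, 51.6 and 59.3 FPKM in Daxx-null libraries, against 239.6, 308 and 131 FPKM in wild-type libraries. Dppa3, which encodes Stella, a protein that binds Uhrf1 and protects the maternal genome from Tet3, went the other way, with 449, 316 and 280.2 FPKM in Daxx-null libraries, against 47.3, 46.5 and 12.8 FPKM in wild-type libraries (log2 difference 3.46, SE 0.49, limma adjusted p = 0.00615). Klf5 and Nr5a2, on chromosomes 14 and 1, had log2 differences of 0.64 and 0.53, which became -0.044 and -0.16 when the median of each gene's chromosome was subtracted.

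The formative and primed list had 3 rises (12%) and 3 falls (12%) among 25 tested, against 17.7% and 7.76% of all genes. It had 4 and 10 in the 4-library fit (1 to 3 and 1 to 6 with 1 library left out). Krt18, a keratin of simple epithelia, had 395, 486 and 359.7 FPKM in Daxx-null libraries, against 47.9, 62.8 and 9.80 FPKM in wild-type libraries (log2 difference 3.70, SE 0.62, limma adjusted p = 0.00929), and its log2 difference was 2.77 in the 4-library fit. Grhl2, an epithelial transcription factor, had 78.6, 54.3 and 78.3 FPKM in Daxx-null libraries, against 31.8, 29.6 and 16.8 FPKM in wild-type libraries. Among the falls, Tead2 had 282, 299 and 267 FPKM in Daxx-null libraries, against 429, 404 and 555 FPKM in wild-type libraries, and Zic5 had 23.3, 50.5 and 26.8 FPKM in Daxx-null libraries, against 78.2, 83.4 and 59.0 FPKM in wild-type libraries.

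Homeobox genes of the X-linked Rhox cluster, which are expressed in germ cells and placenta and repressed by DNA methylation in somatic cells, were higher. Of 27 members 17 were tested, and 9 rose (52.9%) and 0 fell, against 17.7% and 7.76% of all genes (14 and 0 at an unadjusted p under 0.05 in limma). All 17 rose in the 4-library fit. The median log2 difference was 1.80 with 6 libraries and 1.54 in the 4-library fit. Rhox9 had 1013, 585 and 910.4 FPKM in Daxx-null libraries, against 75.2, 95.2 and 14.7 FPKM in wild-type libraries (log2 difference 4.09, SE 0.64, limma adjusted p = 0.00816). Rhox6 had 879, 565 and 777 FPKM in Daxx-null libraries, against 92.1, 99.3 and 16.5 FPKM in wild-type libraries, and Rhox13 had 554, 354 and 464 FPKM in Daxx-null libraries, against 235, 239 and 170.5 FPKM in wild-type libraries. Rhox2f, whose reads may be shared with the other Rhox2 copies, had 40.6, 18.1 and 26.7 FPKM in Daxx-null libraries, against 6.28, 8.73 and 3.29 FPKM in wild-type libraries. Wild-type replicate 3 was the lowest library in each of these, and without Daxx-null replicate 3 only 2 members rose, against 13 without Daxx-null replicate 2. Without Daxx-null replicate 1 the count was 5.

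Other germ-cell genes on the X chromosome had 6 rises and 2 falls among 34 tested, 1 of which passed through the Daxx-null libraries alone, and 11 and 2 in the 4-library fit (0 to 6 and 2 to 3 with 1 library left out). The shares of 17.6% and 5.88% are close to the 17.7% and 7.76% of all genes. Tktl1, a transketolase-like gene, had 36.7, 26.7 and 33.9 FPKM in Daxx-null libraries, against 14.2, 13.7 and 7.70 FPKM in wild-type libraries, and Usp26, a testis-expressed deubiquitinase, had 39.4, 67.5 and 70.6 FPKM in Daxx-null libraries, against 28.0, 23.9 and 16.4 FPKM in wild-type libraries. Magea4, a cancer-testis antigen gene, fell, with 95.8, 71.9 and 83.9 FPKM in Daxx-null libraries, against 186, 222 and 187 FPKM in wild-type libraries, as did Pnma5, with 189, 111 and 189 FPKM in Daxx-null libraries, against 388, 374 and 362 FPKM in wild-type libraries.

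Germline genes whose promoters are methylated in somatic cells had 13 rises and 3 falls among 42 tested, and 18 and 3 in the 4-library fit. With 6 libraries that is 31.0% and 7.14%, against 17.7% and 7.76% of all genes. Rec8, the meiotic cohesin subunit, had 309.9, 288 and 333 FPKM in Daxx-null libraries, against 70.0, 76.4 and 12.9 FPKM in wild-type libraries. Slc25a31, the ADP/ATP carrier of the germ line, had 169, 159 and 144 FPKM in Daxx-null libraries, against 52.4, 54.3 and 19.9 FPKM in wild-type libraries, and Sycp2, of the synaptonemal complex, had 14.9, 16.9 and 17.7 FPKM in Daxx-null libraries, against 3.51, 3.67 and 0.469 FPKM in wild-type libraries. Tex15, a gene needed for silencing of transposons in male germ cells, had 40.8, 54.8 and 47.6 FPKM in Daxx-null libraries, against 21.7, 22.4 and 18.3 FPKM in wild-type libraries. Dmc1, the meiotic recombinase, fell, with 8.07, 8.74 and 9.03 FPKM in Daxx-null libraries, against 15.5, 17.0 and 15.6 FPKM in wild-type libraries. Only 2 members rose without Daxx-null replicate 3, and 7 without Daxx-null replicate 1.

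Markers of the 2-cell-like state, a rare state of cultures that resembles the embryo at genome activation, were also examined. Among 25 tested of 33 there were 13 rises (52%) and 0 falls, against 17.7% and 7.76% of all genes (21 and 0 at an unadjusted p under 0.05 in limma). The 4-library fit gave 15 and 0. In this list 1 member passed through the Daxx-null libraries alone. Usp17lb, a deubiquitinase gene of a repeated family with which reads may be shared, had 50.5, 65.1 and 39.5 FPKM in Daxx-null libraries, against 11.3, 13.8 and 6.08 FPKM in wild-type libraries. Usp17lc and Usp17ld had log2 differences of 2.19 and 2.73. Sp110, a nuclear body gene on chromosome 1, had 19.12, 20.1 and 16.5 FPKM in Daxx-null libraries, against 2.56, 2.18 and 0.107 FPKM in wild-type libraries. Counts with 1 library left out were 5 to 12, with 5 without Daxx-null replicate 3 and 7 without Daxx-null replicate 1.

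Imprinted genes, of which 1 parental copy is silenced by methylation, had calls near the shares of all genes. Of 56 tested members 13 rose and 5 fell, and 17 and 16 in the 4-library fit (4 to 11 and 3 to 12 with 1 library left out). With 6 libraries that is 23.2% and 8.93%, against 17.7% and 7.76% of all genes. Peg10, a paternally expressed gene derived from a retrotransposon, had 1095, 2996 and 1818 FPKM in Daxx-null libraries, against 247, 245 and 183 FPKM in wild-type libraries (log2 difference 3.02, SE 0.34, limma adjusted p = 0.0045). Sgce, its neighbour under the same imprint, had 85.9, 134 and 77.9 FPKM in Daxx-null libraries, against 24.9, 24.1 and 25.7 FPKM in wild-type libraries. Phlda2, a maternally expressed gene that restrains placental growth, had 193, 163 and 161 FPKM in Daxx-null libraries, against 40.4, 45.2 and 48.6 FPKM in wild-type libraries, and Sfmbt2, a Polycomb group gene imprinted in rodents, had 99.1, 156 and 140.2 FPKM in Daxx-null libraries, against 40.6, 38.9 and 14.6 FPKM in wild-type libraries. Grb10, an inhibitor of insulin signalling, fell, with 56.4, 45.6 and 53.2 FPKM in Daxx-null libraries, against 143, 135 and 220.1 FPKM in wild-type libraries, together with its neighbours Cobl and Ddc on chromosome 11, with log2 differences of -1.17 and -0.96. Nespas, the antisense transcript of the Gnas domain, had 6.25, 5.68 and 9.52 FPKM in Daxx-null libraries, against 26.5, 25.7 and 27.2 FPKM in wild-type libraries.

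Genes of DNA methylation had 6 rises (26.1%) and 4 falls (17.4%) among 23 tested, against 17.7% and 7.76% of all genes. The 4-library fit gave 6 and 5 (1 to 4 and 1 to 2 with 1 library left out). Uhrf1, which brings Dnmt1 to hemimethylated DNA, had 596, 527 and 542 FPKM in Daxx-null libraries, against 842, 826 and 967 FPKM in wild-type libraries (log2 difference -0.66, SE 0.12, limma adjusted p = 0.0116). Dnmt1, the maintenance methyltransferase, had 354, 356 and 446 FPKM in Daxx-null libraries, against 538, 487 and 564 FPKM in wild-type libraries (limma adjusted p = 0.041), and was not called without the libraries that stand apart, with -0.37 in the 4-library fit, limma adjusted p = 0.0961. Tet1 and Tet2, which oxidise methylcytosine with vitamin C as a cofactor, had 119, 121 and 176 FPKM in Daxx-null libraries, against 249, 212 and 216 FPKM in wild-type libraries for Tet1 and 91.9, 93.8 and 128 FPKM in Daxx-null libraries, against 165, 152 and 209.7 FPKM in wild-type libraries for Tet2. Tet2 was not called there either (-0.54 in the 4-library fit, limma adjusted p = 0.0546). Dnmt3a, a de novo methyltransferase, rose, with 62.2, 96.0 and 76.7 FPKM in Daxx-null libraries, against 47.7, 45.7 and 39.3 FPKM in wild-type libraries.

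Demethylases that use vitamin C had 1 rise (4.76%) and 3 falls (14.3%) among 21 tested, against 17.7% and 7.76% of all genes. They had 1 and 6 in the 4-library fit (0 to 1 and 0 to 4 with 1 library left out). Kdm3a, an H3K9 demethylase, had 325, 310.1 and 356 FPKM in Daxx-null libraries, against 495, 518 and 442 FPKM in wild-type libraries, and Kdm5b, an H3K4 demethylase on chromosome 1, had 845, 837 and 949 FPKM in Daxx-null libraries, against 588, 550.3 and 424 FPKM in wild-type libraries.

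The chaperone pathway of Daxx itself had calls at about the share of all genes. Of 33 tested members of the H3.3 and PML list 4 rose and 3 fell, and 5 and 5 in the 4-library fit (3 to 5 and 1 to 4 with 1 library left out), shares of 12.1% and 9.09% against 17.7% and 7.76% of all genes. Atrx, the partner of Daxx, was not called, with 117, 188 and 185 FPKM in Daxx-null libraries, against 175, 163 and 146 FPKM in wild-type libraries, and neither was the H3.3 gene H3f3b, with 2877, 1844 and 2249 FPKM in Daxx-null libraries, against 2157, 2154 and 1445 FPKM in wild-type libraries. Both were chosen after their values were seen. H3f3a, the other H3.3 gene, on chromosome 1, had 1827, 1381 and 1346 FPKM in Daxx-null libraries, against 1024, 1058 and 1014 FPKM in wild-type libraries (log2 difference 0.54, SE 0.15, limma adjusted p = 0.0405), and its direction turned when chromosome medians were subtracted. Supt16 and Ssrp1, which encode the subunits of the chaperone FACT, had log2 differences of 0.63 and -0.48, and the direction of Supt16, on chromosome 14, turned likewise. Sp100, a PML body protein induced by interferon, had 23.8, 29.9 and 20.02 FPKM in Daxx-null libraries, against 3.99, 5.15 and 0.777 FPKM in wild-type libraries, and Sp110, of the same gene family, has been described above.

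Of 32 tested genes of H3K9 methylation, Trim28 and HP1, 4 rose (12.5%) and 5 fell (15.6%), against 17.7% and 7.76% of all genes. Counts in the 4-library fit were 4 and 7 (1 to 5 and 4 to 6 with 1 library left out). Of the 5 that fell, 3 lay on chromosome 6, 8 or 19. Cbx1 and Cbx3, which encode the HP1 proteins beta and gamma, had 193, 205 and 241 FPKM in Daxx-null libraries, against 329, 342 and 383 FPKM in wild-type libraries for Cbx1 and 175, 109 and 146 FPKM in Daxx-null libraries, against 267, 236 and 294 FPKM in wild-type libraries for Cbx3. Hells, a remodeller needed for methylation of repeats, had 502, 598 and 574 FPKM in Daxx-null libraries, against 948, 961 and 809 FPKM in wild-type libraries. Smarcad1, a remodeller that binds Trim28, had 179.6, 178 and 195 FPKM in Daxx-null libraries, against 305, 304 and 318 FPKM in wild-type libraries. Of the rises, Smchd1, which acts in X inactivation, had 93.5, 122 and 119.6 FPKM in Daxx-null libraries, against 64.0, 56.1 and 44.0 FPKM in wild-type libraries, and Mphosph8, of the HUSH complex, and Setdb2, both on chromosome 14, had log2 differences of 0.65 and 0.95, and the direction of Mphosph8 also turned.

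All 4 members of the H3.3 and PML list that rose lay on chromosome 1 or 14, and levels of whole chromosomes differed between the genotypes. The median over genes of chromosome 1, relative to all genes and to the wild-type mean, was 0.49 to 0.54 on the log2 scale in the Daxx-null libraries and -0.09 to 0.05 in the wild-type libraries. On chromosome 14 it was 0.38 to 0.54 in Daxx-null libraries and -0.14 to 0.07 in wild-type libraries, and on the X chromosome 0.21 to 0.30 and -0.12 to 0.05. It was lower on chromosome 19, at -0.40 to -0.34 in Daxx-null libraries against -0.07 to 0.12 in wild-type libraries, and on chromosome 6, at -0.31 to -0.29 against -0.05 to 0.11. The groups did not overlap on these chromosomes. Nor did they on chromosomes 3, 4, 5, 7, 8, 10, 11, 12, 13 and 15, where differences were smaller, or on the Y chromosome, with 13 tested genes. On chromosome 8 the median was -0.18 to -0.14 in Daxx-null libraries against -0.05 to 0.09 in wild-type libraries. Copy number was not measured, so altered chromosome number and altered expression cannot be told apart.

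The share of calls moved with this. On chromosome 1, 413 of 955 tested genes rose and 17 fell, and on chromosome 14, 223 of 571 rose and 13 fell. Chromosomes 1 and 14 held 21.5% of the genes that rose, 2.31% of those that fell and 6.89% of those without a call. Chromosomes 6, 8 and 19 held 266 of the 2956 genes that rose, 402 of the 1299 that fell and 1617 of the 12476 without a call. With the median of each chromosome subtracted, 1799 genes rose and 1937 fell. That step also removes the shift over all genes, and quantile normalisation alone gave 1904 rises and 1872 falls. The log2 differences of Supt16, H3f3a and Mphosph8 were -0.051, -0.16 and -0.027 after the subtraction. The same subtraction left 22 of 45 antiviral effectors, 15 of 17 GBP and IRG genes and 21 of 25 antigen presentation genes with rises, and 34 of 46 mitotic genes with falls. On the X chromosome, Rhox rises numbered 4 after it, against 9 before, and X-linked germ-cell genes had 1 rise and 4 falls, against 6 and 2. Genes of H3K9 methylation had 1 rise, against 4, p53 targets 13, against 20, and kinetochore genes 14 falls, against 4. Quantile normalisation alone gave 5 Rhox rises, 2 rises and 2 falls of X-linked germ-cell genes and 20 mitotic falls. It gave 5 rises of H3K9 genes, 19 of p53 targets and 6 kinetochore falls.

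**Figure D3:**
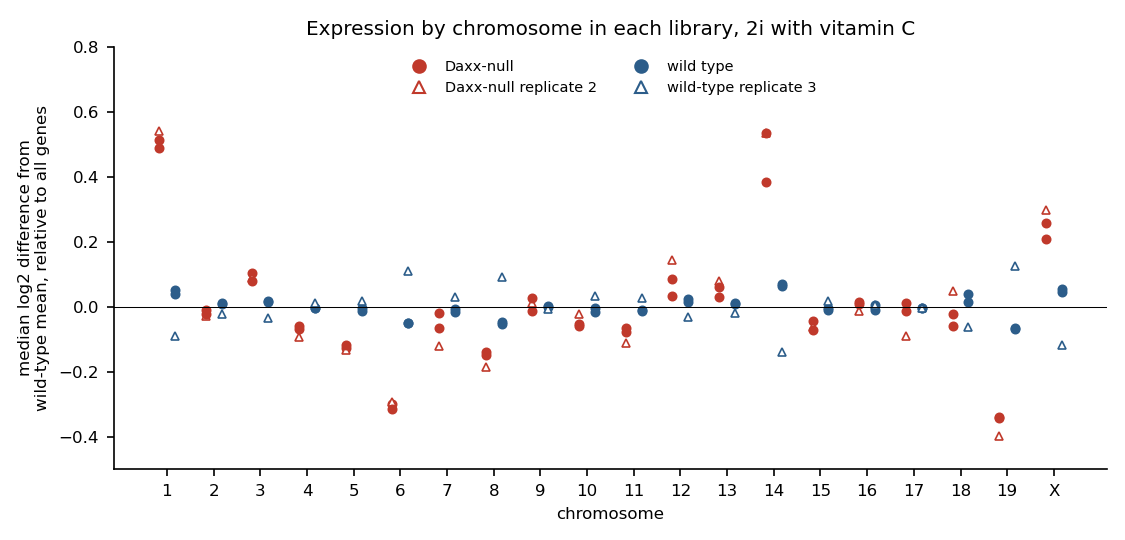
Median log2 level over the tested genes of each chromosome, relative to all genes and to the wild-type mean, per library, with Daxx-null libraries left of wild-type libraries and triangles for Daxx-null replicate 2 and wild-type replicate 3. Chromosomes 1 and 14 lie at 0.38 to 0.54 in Daxx-null libraries, and chromosomes 6 and 19 lie below 0 in those libraries, apart from the wild-type values.

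Lysosomal genes had 11 rises and 2 falls among 32 tested, 1 of which passed through the Daxx-null libraries alone, and 17 and 1 in the 4-library fit. With 6 libraries that is 34.4% and 6.25%, against 17.7% and 7.76% of all genes. Ctsb, the protease cathepsin B on chromosome 14, had 398, 478 and 312 FPKM in Daxx-null libraries, against 112, 117 and 110.1 FPKM in wild-type libraries (log2 difference 1.78, SE 0.16, limma adjusted p = 0.00374). Psap, the precursor of the saposins, had 2477, 2047 and 2113 FPKM in Daxx-null libraries, against 1134, 1184 and 1123 FPKM in wild-type libraries, and Gaa, the acid glucosidase, had 368, 328 and 353 FPKM in Daxx-null libraries, against 154, 171 and 153 FPKM in wild-type libraries. Sqstm1, the autophagy receptor p62, had 1192, 1097 and 1049 FPKM in Daxx-null libraries, against 634, 610.3 and 582 FPKM in wild-type libraries. Tfeb, a transcription factor of lysosomal genes, fell, with 149, 106 and 124 FPKM in Daxx-null libraries, against 173, 169 and 219.6 FPKM in wild-type libraries. Leaving out Daxx-null replicate 3 or either of wild-type replicates 1 and 2 gave 6 rises.

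Contractile and cytoskeletal targets of SRF and YAP had 18 rises (51.4%) and 0 falls among 35 tested, against 17.7% and 7.76% of all genes. Counts were 22 and 0 at an unadjusted p under 0.05 in limma, and 22 and 0 in the 4-library fit. The median log2 difference was 1.36 with 6 libraries and 0.90 in the 4-library fit. Anxa2, a calcium-dependent membrane protein gene, had 233, 303 and 208 FPKM in Daxx-null libraries, against 53.5, 61.1 and 41.6 FPKM in wild-type libraries (log2 difference 2.24, SE 0.20, limma adjusted p = 0.00374). Tpm1, a tropomyosin, had 746, 993 and 722 FPKM in Daxx-null libraries, against 299, 313 and 164 FPKM in wild-type libraries, Zyx, a focal adhesion protein, had 195, 310.4 and 191 FPKM in Daxx-null libraries, against 81.7, 83.7 and 40.9 FPKM in wild-type libraries, and S100a11, a calcium-binding protein gene, had 171, 113 and 112 FPKM in Daxx-null libraries, against 50.9, 59.4 and 41.4 FPKM in wild-type libraries. Leaving out Daxx-null replicate 3 gave 7 rises, and leaving out Daxx-null replicate 1 gave 11.

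Lists of ribosomal and metabolic genes were also examined. Of 74 genes of cytosolic ribosomal proteins 0 rose (1 at an unadjusted p under 0.05 in limma) and 2 fell (2.70%), against 17.7% and 7.76% of all genes. Those that fell were Rps2 and Rplp0, with log2 differences of -0.76 and -0.62. The 4-library fit gave 1 rise and 1 fall. Cholesterol synthesis had 2 rises (7.14%) and 3 falls (10.7%) among 28 tested, against 17.7% and 7.76% of all genes. It had 2 and 14 in the 4-library fit, with 9 falls when Daxx-null replicate 2 alone was left out. Mvk, mevalonate kinase, had 109, 109.6 and 89.0 FPKM in Daxx-null libraries, against 257, 224 and 366 FPKM in wild-type libraries, and the 2 members that rose, Hsd17b7 and Fdft1, lie on chromosomes 1 and 14. Glycolysis and hypoxia genes had 5 rises (15.2%) and 6 falls (18.2%) among 33 tested, against 17.7% and 7.76% of all genes. They had 8 and 7 in the 4-library fit (1 to 5 and 4 to 6 with 1 library left out). Pdk1, the kinase that restrains entry of pyruvate into mitochondria, had 57.5, 57.7 and 58.0 FPKM in Daxx-null libraries, against 113, 136 and 136 FPKM in wild-type libraries, and Hk2, hexokinase 2, had 313, 283 and 354 FPKM in Daxx-null libraries, against 598, 549 and 855 FPKM in wild-type libraries.

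Markers of other cell types were examined as lists. The trophoblast list had 14 rises (63.6%) and 2 falls (9.09%) among 22 tested, against 17.7% and 7.76% of all genes. Of the 22, 1 passed through the Daxx-null libraries alone. The list had 15 rises and 3 falls in the 4-library fit, with 8 rises when Daxx-null replicate 3 was left out. Its summed level was 4718, 5853 and 5059 FPKM in Daxx-null libraries, against 1321, 1358 and 1027 FPKM in wild-type libraries. Esx1, a placental homeobox gene on the X chromosome, had 119, 102 and 104 FPKM in Daxx-null libraries, against 42.7, 36.1 and 21.7 FPKM in wild-type libraries, and Krt8, the partner of Krt18, had 174, 235 and 168 FPKM in Daxx-null libraries, against 37.1, 44.1 and 18.9 FPKM in wild-type libraries. Peg10, Rhox6, Rhox9 and Ascl2 are in this list and in others above. Tead4, needed for trophectoderm, fell, with 66.3, 52.9 and 81.8 FPKM in Daxx-null libraries, against 112, 121 and 169.6 FPKM in wild-type libraries.

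Primitive and visceral endoderm markers had 7 rises and 3 falls among 24 tested, 2 of which passed through the Daxx-null libraries alone. With 6 libraries that is 29.2% and 12.5%, against 17.7% and 7.76% of all genes. There were 8 and 2 in the 4-library fit (3 to 6 rises with 1 library left out). Gata6, which specifies primitive endoderm, had 101, 76.0 and 85.6 FPKM in Daxx-null libraries, against 40.4, 38.2 and 25.4 FPKM in wild-type libraries, and Sox7 had 2.24, 4.35 and 2.56 FPKM in Daxx-null libraries, against 0.555, 0.634 and 0.187 FPKM in wild-type libraries. Apom, an apolipoprotein, and Hhex, a homeobox gene of anterior visceral endoderm, fell, with log2 differences of -2.50 and -1.37. Summed levels were 3539, 4934 and 3686 FPKM in Daxx-null libraries, against 2942, 3016 and 2523 FPKM in wild-type libraries.

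The neural markers depended on which libraries were used. With 6 libraries 2 of 27 rose (7.41%) and 1 fell (3.70%), against 17.7% and 7.76% of all genes. In the 4-library fit 6 rose and 10 fell. Stmn2, a neuronal microtubule regulator, had 125, 416 and 99.0 FPKM in Daxx-null libraries, against 512, 549 and 535 FPKM in wild-type libraries, and Pax6 had 17.2, 33.0 and 21.8 FPKM in Daxx-null libraries, against 7.86, 8.34 and 3.96 FPKM in wild-type libraries. Msx1, a marker of neural crest, had 19.02, 204 and 19.5 FPKM in Daxx-null libraries, against 3.90, 3.05 and 2.53 FPKM in wild-type libraries, with the value of Daxx-null replicate 2 far above those of the other Daxx-null libraries. Its log2 difference was 3.57 with 6 libraries and 2.32 in the 4-library fit.

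Hox genes and clustered protocadherins moved with that library too. Of 37 tested Hox genes, 2 passed through the wild-type libraries alone. Among the 37, 0 rose and 5 fell (13.5%), against 17.7% and 7.76% of all genes (0 and 9 at an unadjusted p under 0.05 in limma). The 4-library fit gave 0 and 21. Of the 5 that fell, 4 lay on chromosome 6, 8 or 19, where medians were lower in Daxx-null libraries. Hoxa10 had 4.61, 17.5 and 3.78 FPKM in Daxx-null libraries, against 39.7, 37.4 and 64.1 FPKM in wild-type libraries, and Hoxa13 had 0.738, 0.708 and 0.764 FPKM in Daxx-null libraries, against 3.69, 5.47 and 5.11 FPKM in wild-type libraries. Summed Hox levels were 585, 2686 and 531 FPKM in Daxx-null libraries, against 987, 890.0 and 997 FPKM in wild-type libraries. Of 36 tested protocadherins 0 were called in limma with 6 libraries, also at an unadjusted p under 0.05, and 0 rose and 21 fell in the 4-library fit, where the median log2 difference was -0.37 against -0.09. Without Daxx-null replicate 2 alone, 15 Hox genes fell.

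Mesoderm markers had 1 rise and 2 falls among 20 tested, and 1 and 8 in the 4-library fit. Bmp4 had 47.5, 67.5 and 44.6 FPKM in Daxx-null libraries, against 140.1, 169 and 108 FPKM in wild-type libraries, and Tcf15, a factor of somites that is also expressed in cells leaving naive pluripotency, had 19.96, 15.7 and 14.3 FPKM in Daxx-null libraries, against 77.6, 85.2 and 124 FPKM in wild-type libraries. Fibroblast markers had 5 rises and 1 fall among 20, and 5 and 5 in the 4-library fit, with Timp3, a metalloproteinase inhibitor, at 121, 159.7 and 143 FPKM in Daxx-null libraries, against 28.2, 27.1 and 6.72 FPKM in wild-type libraries. Blood and endothelial markers had 5 rises and 1 fall among 12, also in the 4-library fit, with Gata1 at 23.03, 16.6 and 23.9 FPKM in Daxx-null libraries, against 4.67, 6.67 and 4.67 FPKM in wild-type libraries. Neural crest markers had 3 rises and 1 fall among 12, and 3 and 2 in the 4-library fit. Glial markers had 1 rise and 0 falls among 8 (2 and 0 at an unadjusted p under 0.05 in limma), and 3 and 1 in the 4-library fit. With 6 libraries, shares that rose and fell were 5% and 10% for mesoderm, 25% and 5% for fibroblast and 41.7% and 8.33% for blood and endothelium. They were 25% and 8.33% for neural crest and 12.5% and 0% for glia, against 17.7% and 7.76% of all genes. The part of such cells in the gene lists above was not tested.

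Repeats were measured per subfamily in a separate set of reads, on which each value is a share of that set per copy and length. That set was 13.4 to 18.9% the size of the gene read set in Daxx-null libraries and 12.6 to 15.8% in wild-type libraries. The means were 16.3 ± 2.78% and 14.7 ± 1.80% (SD, n = 3 each), with p = 0.4 in a two-sided exact permutation test, for which 0.1 is the smallest p that 3 against 3 allows. Of 867 subfamilies tested of 906, 30 (3.46%) rose and 8 (0.923%) fell in limma. After quantile normalisation 10 rose and 12 fell, and after median-ratio scaling 15 and 11. In the 4-library fit 3 (0.346%) rose and 2 (0.231%) fell.

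The endogenous retroviruses of the ERVK family held 15 of the 30 rises and 6 of the 8 falls, and moved in opposite directions. Intracisternal A particles (IAP), young retroviruses that are normally silenced by H3K9 methylation and DNA methylation, took 15.9, 17.3 and 16.7% of repeat units in Daxx-null libraries, against 7.10, 7.79 and 5.88% in wild-type libraries. Of 16 IAP subfamilies 7 rose and 0 fell (11 and 0 at an unadjusted p under 0.05 in limma). The internal part IAPEz-int had 106, 118 and 116 repeat FPKM in Daxx-null libraries, against 44.7, 49.9 and 32.7 repeat FPKM in wild-type libraries (log2 difference 1.42, SE 0.20, limma adjusted p = 0.0214), and its log2 difference was 1.22 in the 4-library fit, limma adjusted p = 0.0595. The long terminal repeat IAPLTR1_Mm had 221, 151 and 164 repeat FPKM in Daxx-null libraries, against 58.8, 63.7 and 47.0 repeat FPKM in wild-type libraries. IAPLTR2_Mm had 9.59, 8.30 and 8.15 repeat FPKM in Daxx-null libraries, against 5.31, 5.30 and 4.79 repeat FPKM in wild-type libraries. Groups did not overlap for 12 of the 16 IAP subfamilies, all higher in Daxx-null libraries, against 26% of all subfamilies.

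MMERVK10C, another ERVK family, and its RLTR10 terminal repeats had 5 rises and 0 falls among 9 subfamilies. MMERVK10C-int had 25.4, 26.8 and 30.4 repeat FPKM in Daxx-null libraries, against 6.45, 6.91 and 5.50 repeat FPKM in wild-type libraries (log2 difference 2.04, SE 0.14, limma adjusted p = 0.00359), and 1.97 in the 4-library fit, limma adjusted p = 0.036. RLTR10C had 14.6, 8.73 and 11.1 repeat FPKM in Daxx-null libraries, against 3.11, 3.43 and 2.57 repeat FPKM in wild-type libraries, and RLTR10B2 had 3.75, 2.99 and 3.34 repeat FPKM in Daxx-null libraries, against 0.996, 1.18 and 0.671 repeat FPKM in wild-type libraries. The family took 1.49, 1.30 and 1.49% of repeat units in Daxx-null libraries, against 0.496, 0.515 and 0.494% in wild-type libraries.

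Early transposon (ETn) and MusD elements, which are also ERVK, fell. Of 4 subfamilies in the list 0 rose and 3 fell: ETnERV-int had 16.8, 23.4 and 24.8 repeat FPKM in Daxx-null libraries, against 62.4, 63.8 and 55.8 repeat FPKM in wild-type libraries (log2 difference -1.48, SE 0.19, limma adjusted p = 0.0178), RLTRETN_Mm had 26.6, 20.9 and 22.7 repeat FPKM in Daxx-null libraries, against 62.0, 64.3 and 54.2 repeat FPKM in wild-type libraries, and ETnERV2-int had 17.6, 18.1 and 19.4 repeat FPKM in Daxx-null libraries, against 31.8, 33.7 and 28.1 repeat FPKM in wild-type libraries. MMETn-int, a related element outside the list, had 121, 127 and 125 repeat FPKM in Daxx-null libraries, against 417, 425 and 349 repeat FPKM in wild-type libraries (log2 difference -1.67, SE 0.16, limma adjusted p = 0.0078), and -1.77 in the 4-library fit, limma adjusted p = 0.036. Groups did not overlap, with lower values in Daxx-null libraries, for 3 of the 4 listed subfamilies, against 6.81% of all subfamilies. RLTR45-int had 93.2, 68.6 and 101 repeat FPKM in Daxx-null libraries, against 229, 217 and 217 repeat FPKM in wild-type libraries, and RLTR13B1 had 12.9, 8.84 and 10.2 repeat FPKM in Daxx-null libraries, against 23.6, 23.1 and 26.3 repeat FPKM in wild-type libraries. In each of these the highest Daxx-null library lay below the lowest wild-type library.

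**Figure D4:**
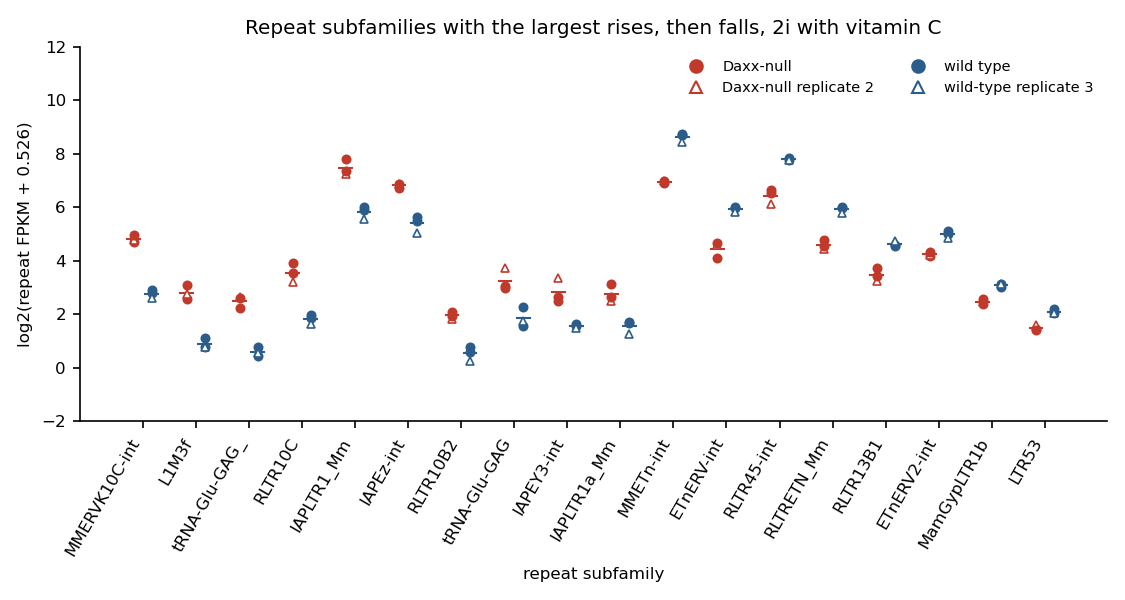
Level per library, as log2 of repeat FPKM plus 0.526, for the subfamilies with the largest called rises (left) and falls (right), Daxx-null libraries left of wild-type libraries, with bars at group means and triangles for Daxx-null replicate 2 and wild-type replicate 3. IAP and MMERVK10C elements lie higher and ETn elements lower in Daxx-null libraries, without overlap between the groups.

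Rises numbered 3 without Daxx-null replicate 3 or wild-type replicate 1, 4 and 5 without wild-type replicates 3 and 2, and 8 without Daxx-null replicate 1. Falls numbered 0 without Daxx-null replicate 3 or wild-type replicate 1 or 2, 2 without wild-type replicate 3 and 4 without Daxx-null replicate 1. The 4-library fit called 1 IAP, 1 MMERVK10C or RLTR10 and 0 ETn subfamilies. Of the IAP subfamilies 0 were called without Daxx-null replicate 3 or any 1 wild-type library, while the median log2 difference of the 16 lay between 0.43 and 0.68 over all 6 such fits. For the ETn subfamilies that median lay between -1.12 and -0.99, with 0 called without Daxx-null replicate 3 or wild-type replicate 1 or 2. MMERVK10C and RLTR10 rises numbered 1 without Daxx-null replicate 3 or wild-type replicate 1, 2 without either of the other wild-type libraries and 3 without Daxx-null replicate 1.

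The ERVK family had 15 rises and 6 falls among 148 subfamilies, against 3.46% and 0.923% of all subfamilies. Outside it, the ERVL family had 3 rises and 1 fall among 84, near those shares. L1 had 3 rises among 110, ERV1 had 2 rises among 101 and Gypsy had 1 fall among 10. DNA transposons had 4 rises among 153, tRNA repeats 2 among 47 and the RC class 1 among 4. MERVL-int, which is transcribed in 2-cell-like cells, had 13.3, 25.9 and 17.3 repeat FPKM in Daxx-null libraries, against 10.4, 12.4 and 7.01 repeat FPKM in wild-type libraries (log2 difference 0.87, SE 0.30, limma adjusted p = 0.158), and its terminal repeat MT2_Mm had 9.84, 13.3 and 9.48 repeat FPKM in Daxx-null libraries, against 6.58, 7.15 and 5.44 repeat FPKM in wild-type libraries (limma adjusted p = 0.093). Young L1 elements had 0 calls among 6 (2 higher at an unadjusted p under 0.05 in limma): L1Md_A had 19.3, 17.9 and 26.8 repeat FPKM in Daxx-null libraries, against 20.1, 19.22 and 11.4 repeat FPKM in wild-type libraries (limma adjusted p = 0.474), and the groups overlapped. At an unadjusted p under 0.05 in limma, 2 of 7 MERVL and MT2 subfamilies were higher, 14 of 94 MaLR subfamilies were higher and 2 lower, and 3 of 12 leukaemia virus and VL30 subfamilies were higher and 2 lower. The same held for 1 of 21 SINE B1 and B2 subfamilies, higher, and for 0 of 5 satellites. None of these passed after adjustment. The major satellite GSAT_MM had 6.55, 8.58 and 4.91 repeat FPKM in Daxx-null libraries, against 4.91, 5.20 and 2.80 repeat FPKM in wild-type libraries. Older L1 had 2 rises among 80, and 0 in the 4-library fit. Of single subfamilies outside these lists, L1M3f and a tRNA-Glu repeat were among the largest rises, with log2 differences of 1.92 and 1.90.

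The effect of Daxx loss was then set against that in serum with LIF, where 3 Daxx-null and 3 wild-type libraries were available, by the difference of the 2 effects in a single fit. Over 17362 genes the effect was higher in 2i than in serum for 4778 (27.5%) and lower for 1741 (10%), and for 5272 (30.4%) and 2316 (13.3%) without the 2 libraries that stand apart. This excess depended on the scaling and turned after quantile normalisation, with 2523 higher and 2851 lower. The cultures differed in other respects as well: the summed level of the Y-linked genes Eif2s3y, Uty and Ddx3y was 236, 173 and 205 FPKM in Daxx-null 2i libraries, 345, 349 and 313 FPKM in wild-type 2i libraries, 2.59, 2.68 and 2.18 FPKM in Daxx-null serum libraries and 258, 246 and 157 FPKM in wild-type serum libraries. The Daxx-null serum libraries were far lower in these genes than the other groups, so these libraries differ in more than the medium.

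Interferon genes differed in their effect between the cultures. The effect was higher in 2i for 37 of 45 antiviral effectors, 14 of 17 GBP and IRG genes and 23 of 25 antigen presentation genes, against 27.5% of all genes. Median log2 differences of these 3 lists in serum were -0.35, -1.24 and -0.58. Cxcl10 had 0.447 ± 0.435 FPKM in Daxx-null serum libraries, against 2.30 ± 0.58 FPKM in wild-type serum libraries, and its effect in 2i exceeded that in serum by 6.31 (SE 0.91, limma adjusted p = 0.000476) on the log2 scale, and by 5.11 without the 2 libraries that stand apart. Psmb8 had 3.45 ± 1.496 FPKM in Daxx-null serum libraries, against 13.6 ± 6.26 FPKM in wild-type serum libraries, and Krt18 had 25.8 ± 8.12 FPKM in Daxx-null serum libraries, against 71.7 ± 27.1 FPKM in wild-type serum libraries.

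Etv4, Spry4 and Gbx2 differed in the other direction. Etv4 had 377 ± 34.8 FPKM in Daxx-null serum libraries, against 316 ± 5.40 FPKM in wild-type serum libraries, a difference of effects of -4.06 (SE 0.34, limma adjusted p = 2.49e-05). Spry4 had 386 ± 94.5 FPKM in Daxx-null serum libraries, against 244 ± 21.3 FPKM in wild-type serum libraries, with a difference of -2.76 (SE 0.39, limma adjusted p = 0.000422). Gbx2 had 642 ± 86.8 FPKM in Daxx-null serum libraries, against 239 ± 31.7 FPKM in wild-type serum libraries, with a difference of -3.32 (SE 0.23, limma adjusted p = 1.01e-05). Over all genes the effect was higher in 2i for 27.5% and lower for 10%. For naive pluripotency genes the effect was higher in 2i for 3 and lower for 17 of 31 tested. For replication genes it was lower in 2i for 20 of 41, and for mitotic genes it was higher for 2 and lower for 18 of 46.

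The Rhox effect was higher in 2i for 16 of 17, against 27.5% of all genes, with a median of -1.27 in serum. For X-linked germ-cell genes the effect was higher in 2i for 20 of 34. Their median log2 difference was 0.43 in 2i and -2.72 in serum, and in 2i 6 rose and 2 fell. Daxx RNA itself had 71.5 ± 2.58 FPKM in Daxx-null serum libraries, against 326 ± 24.03 FPKM in wild-type serum libraries. Of repeats, the effect was higher in 2i for 99 (11.3%) and lower for 23 (2.62%) of 878, and for 106 (12.1%) and 36 (4.1%) without the 2 libraries that stand apart. After quantile normalisation it was higher for 28 and lower for 51. MMETn-int and RLTR45-int had differences of -1.95 (SE 0.15, limma adjusted p = 9.10e-05) and -2.04 (SE 0.19, limma adjusted p = 0.000192), and MMERVK10C-int 1.43 (SE 0.22, limma adjusted p = 0.00376). For IAPEz-int the difference was 0.69 (SE 0.21, limma adjusted p = 0.0542), and its values in serum were 14.2 ± 0.751 repeat FPKM in Daxx-null serum libraries, against 8.36 ± 1.01 repeat FPKM in wild-type serum libraries.

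**Figure D5:**
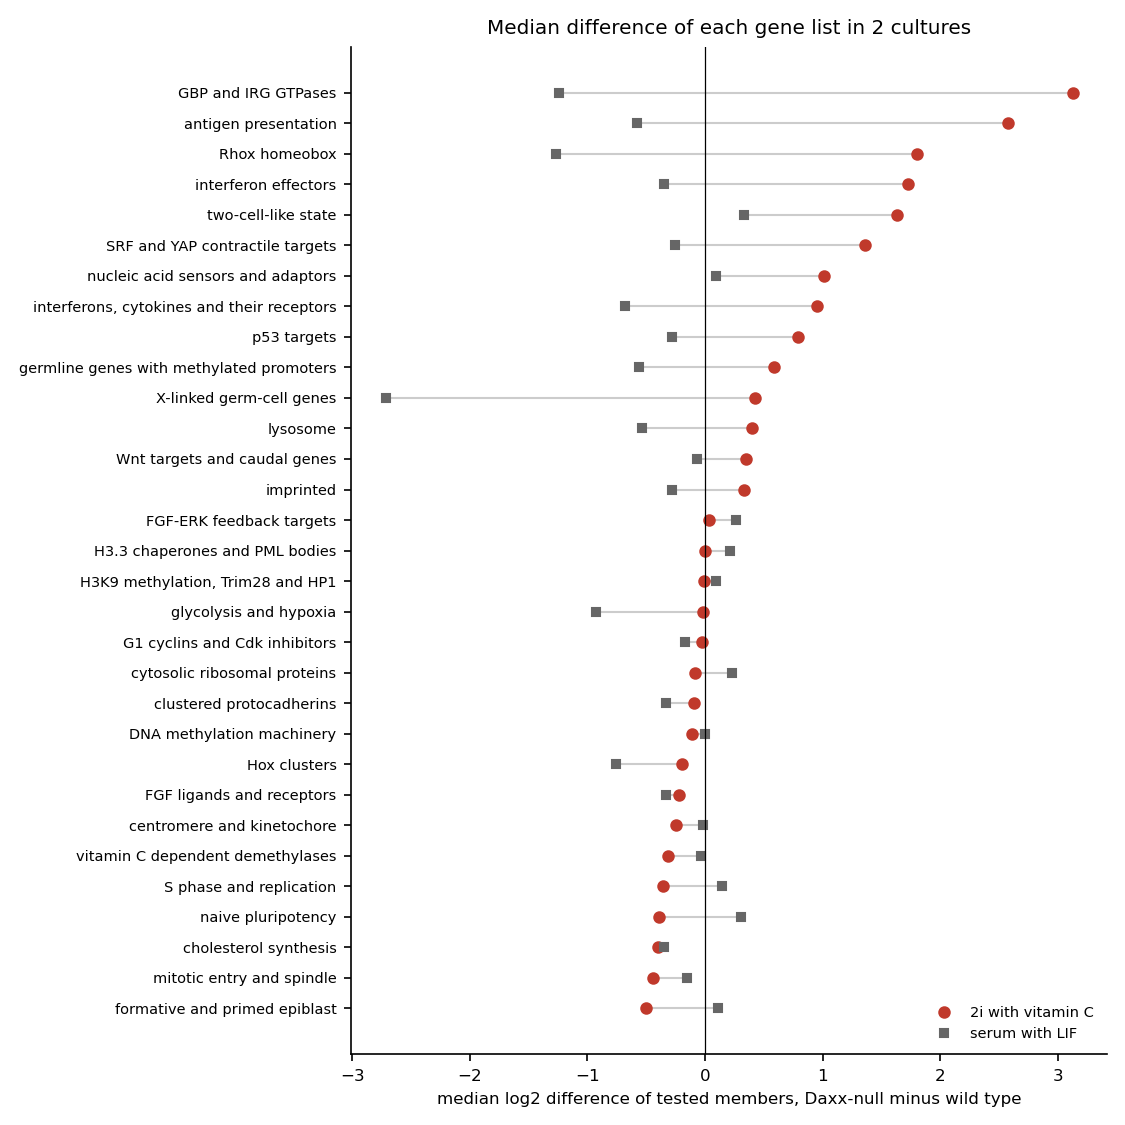
Median log2 difference of Daxx-null minus wild type over the members of each list, in 2i and in serum, with grey lines joining the 2 cultures. GBP and IRG genes lie at 3.13 in 2i and -1.24 in serum, and Rhox genes at 1.80 and -1.27.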

How the data were processed

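RNA was measured in 18 libraries, 3 for each of 2 genotypes in 3 cultures. Per the labels' protocols, RNA was selected with oligo-dT, depleted of ribosomal RNA and fragmented at random, and strand is not stated. Reads were processed with Bowtie2 2.2.6 and HOMER 4.8 on mm9, and limma is named without a version, per the submitters' processing notes. The authors deposited FPKM per gene and, in a separate table, FPKM per repeat subfamily, and no counts. The scale of about 10 times a conventional FPKM was inferred from the values. The authors also deposited a table of log2 values, normalised between libraries.

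Differences were tested here with limma 3.58.1 in R 4.3.3, with a variance trend and Benjamini-Hochberg adjustment over all features tested, on log2(FPKM + 0.5) for genes and log2(FPKM + 0.526) for repeats. The second pseudocount is the 5th percentile of repeat values above 0. A pseudocount understates fold changes of low genes. Genes needed at least 1 FPKM in 3 of the 6 libraries of 2i (16731 of 24505), and repeats a value above 0 in 3 (867 of 906). The difference of effects between cultures was fitted on the 12 libraries of 2i and serum. Called means an adjusted p under 0.05. The limma fits of the 2i difference and of the difference of effects were also run on simulated data.

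The libraries, members and lists were chosen with earlier results of these data known. Named genes are Daxx, the 12 largest called changes each way that also passed in the 4-library fit, with groups that do not overlap and a mean of at least 2 FPKM in the higher genotype, and in each of 39 lists up to 4 called members each way by adjusted p. Some genes that met these rules are not reported here. Predicted genes, Riken clones and small RNA genes were not named. Repeats are the 10 largest called changes each way and up to 3 in each of 11 lists by adjusted p, called or not. For the difference between cultures the 5 largest each way were named. Genes named with a list but without a call, such as Trp53, were chosen after their values were seen, as were Spry4 and Gbx2 in serum and MMETn-int. An alias of Hells and the pattern for RLTR4 were corrected in the lists after values were seen. Replicate numbers are not stated to pair libraries. Alternatives were other scalings, pseudocounts and filters, the deposited log2 table, left-out libraries, all 18 libraries in one fit, and the removal of chromosome medians. Rescaling repeats to the gene read set was chosen after seeing the data. Promoter sequences come from RefSeq.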

Additional observations from a re-analysis of the deposited data

Results flagged for a closer look

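The effect of Daxx loss differed between 2i and serum by a test of that difference in limma. It was higher in 2i for 4778 genes and 99 repeat subfamilies and lower for 1741 genes and 23 subfamilies. After quantile normalisation this balance turned, with 2523 genes and 28 subfamilies higher and 2851 genes and 51 subfamilies lower. Among the named genes, the difference of effects on the log2 scale was 6.31 for Cxcl10, 6.04 for the immunoproteasome gene Psmb8, 5.88 for Gbp2b, 5.62 for Gbp2 and 5.13 for the keratin gene Krt18. In the other direction it was -4.90 for the apolipoprotein gene Apol6, -4.25 for Nkx1-2, -4.17 for Cd37 and -4.06 for Etv4. Without Daxx-null replicate 2 and wild-type replicate 3 of 2i, the differences were 5.11 for Cxcl10, 4.63 for Psmb8, 4.39 for Gbp2b, 4.16 for Gbp2 and 4.20 for Krt18, and -5.32 for Apol6, -4.36 for Nkx1-2, -3.82 for Cd37 and -3.71 for Etv4. Y-linked RNA was also far lower in the Daxx-null serum libraries, and its part in these differences was not tested.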

How the results depend on the processing

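Rises of genes, 2956 in all, numbered 5520 with all 18 libraries in one fit, 3966 in the 4-library fit, 1904 after quantile normalisation, 1895 on the deposited log2 table, 1799 with chromosome medians removed, 1565 with no filter and 818 to 2584 with 1 library left out. The 1299 falls became 2773 with all 18 libraries, 2017 in the 4-library fit and 1937 with chromosome medians removed. They numbered 749 with no filter and 524 to 1324 with 1 library left out. With no filter, rises of GBP and IRG genes numbered 2, of antiviral effectors 5 and of antigen presentation genes 16. With chromosome medians removed, the log2 differences of Klf5, Nr5a2, Supt16, H3f3a and Mphosph8 turned to -0.044, -0.16, -0.051, -0.16 and -0.027.

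Repeat rises numbered 151 with all 18 libraries, 15 with median-ratio scaling, 10 with quantile normalisation, 3 in the 4-library fit and 3 to 27 with 1 left out. Repeat falls numbered 46 with all 18 libraries, 11 and 12 with those scalings, 2 in the 4-library fit, 2 when rescaled to the gene read set and 0 to 10 with 1 left out. With the replicate number as a block, 7 repeats rose and 0 fell in limma, and 2539 genes rose and 1016 fell. Deviations of same-numbered libraries correlated at -0.17, 0.11 and 0.15. With 3 libraries in each group, 1 of which stood apart, these values cannot tell whether same-numbered libraries share more than the number.

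The effect in 2i was higher than in serum for 2523 genes after quantile normalisation and for 3680 to 4917 with 1 library left out. It was lower for 2613 with median-ratio scaling, 2851 with quantile normalisation and 1309 to 2167 with 1 left out. For repeats it was higher for 151 with all 18 libraries, 54 with median-ratio scaling, 28 with quantile normalisation and 49 to 124 with 1 left out. It was lower for 37, 57 and 51 under those settings, 11 when rescaled, 36 with those libraries of 2i left out and 13 to 29 with 1 left out. The difference in the repeat read set was 1.64 percentage points, and 0.350 to 3.11 with 1 left out. The cause of these shifts was not tested. Depth cannot be checked against counts, and values near the pseudocounts carry little weight.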
